A study of Mus musculus with 12 samples.

Results

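The 10 genes described here carry the signal from the electrical impulse of a muscle fibre to its contraction: Cacna1s, Cacng1, Stac3, Ryr1, Casq1, Casq2, Trdn, Atp2a1, Atp2a2 and Pvalb. They were taken by name as a functional group, with earlier results of these data known. The shares of all genes given beside their counts are therefore a background and no test of the list. Each gene was read from 1 probe set, the one with a single gene symbol and the highest mean level over the 12 arrays. They are 10 of 19937 genes measured. Values are log2 of the deposited intensity, and a level on this scale belongs to its own probe set, so levels of different genes are not set against each other.

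In a resting fibre, calcium is held in the sarcoplasmic reticulum, an internal store that faces inward folds of the surface membrane at junctions called triads. An impulse is sensed by a voltage-gated channel in those folds, which opens the release channel of the store by direct contact, and the released calcium starts contraction. Pumps then return the calcium to the store, where calsequestrin binds it, while parvalbumin soaks up calcium in the cytoplasm of fast fibres. Most of this machinery is assembled as muscle cells mature, with some parts switching between isoforms as fibre types are set.

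The study concerns YAP1, a growth-promoting transcriptional coactivator, in rhabdomyosarcoma, a cancer whose cells resemble immature skeletal muscle. All donor and control mice, on a C57BL/6 background, carried Myf5Cre, R26-LSL-rtTA and Col1a-Teto-hYAP1 S127A, so that doxycycline turns on a mutant human YAP1 in cells with a history of Myf5, a gene of muscle precursors. Donors received doxycycline for 4 weeks, after which interstitial cells of their hindlimbs were grafted to the calf (gastrocnemius) of NOD/SCID mice that were on doxycycline as well. The 4 groups, of 3 arrays each, were tumours at day 0 of withdrawal (TUM), tumours 3 days (OFF3) and 6 days (OFF6) after withdrawal, and hindlimb muscle of mice of that genotype that were never induced (CTL). The labels give no age, and whether replicates came from separate animals is not stated there. The p-values therefore measure no more than the variation among these arrays, which may be technical. Tumours grew inside a host muscle, and the array reads host and donor transcripts alike. NOD/SCID hosts lack T and B cells but keep macrophages. In bulk tissue, fewer cells of a type and less RNA per cell cannot be told apart.

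Median intensity per array ran from 86.74 to 93.05. Signal of the mouse Yap1 probe set fell by 0.29 from TUM to OFF3 and by 0.25 to OFF6 (log2). It is no check of induction, because the transgene is human and its signal on this probe set is unknown. OFF6 replicate 2 stood apart: its mean correlation across genes was 0.991 with the other OFF6 arrays and 0.995 with the OFF3 arrays. Among 12 adult muscle fibre markers (Ckm, Actn3, fast myosins and others), 11 were called higher in OFF3 and 12 in OFF6 than in TUM. Their summed intensity lay between 17391 and 18533 in TUM, between 34105 and 46173 in OFF3, between 38251 and 40509 in OFF6 and between 87579 and 89828 in CTL, with OFF3 replicate 3 highest among the tumours. For 8 immature fibre markers the sums lay between 15074 and 15277 in TUM, 25423 and 27106 in OFF3, 30405 and 43354 in OFF6 and 10637 and 10842 in CTL, and OFF6 replicate 2 held the lowest of its group. A sum follows its brightest genes, in CTL mainly Actc1 (mean log2 13.03, against 11.07 in TUM). Of the 8, 6 were called lower and 1, Actc1, higher in CTL than in TUM (median difference -2.56). Among all genes 30.3% were called lower and 45.9% higher there. Other markers differed from TUM as well. At day 3, 5 of 5 fibroblast markers (median difference 1.18) and 4 of 4 endothelial markers (0.53) were called higher and 2 of 2 proliferation markers (-1.95) lower, and at day 6 these counts were 4 of 5, 3 of 4 and 2 of 2. Smooth muscle and pericyte markers were called higher in 3 of 4 at each day. Of 4 satellite cell and myoblast markers, 2 were higher and 1 lower at day 3, and 2 and 2 at day 6. Of 4 macrophage markers, 1 was higher at day 3 and 1 lower at day 6. Among all genes 13.4% were called higher and 16% lower at day 3, and 14.9% and 16.6% at day 6. The part of any of these changes in the values below was not tested.

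Within 3 days of doxycycline withdrawal most of the coupling machinery stood higher in the tumours. Of the 10 genes, 9 rose from TUM to OFF3 and 0 fell by limma with Benjamini-Hochberg adjustment, and Atp2a2 was not called. Among all genes 13.4% were called higher and 16% lower in this comparison, 29.4% in either direction. In all 10 genes the OFF3 arrays lay wholly above the TUM arrays and in 0 wholly below, as in 22.1% and 22.7% of all genes. The median difference of the 10 was 1.06, against 0.02 over all genes. By day 6, 9 of the 10 were above TUM and 0 below, this time with Pvalb not called, and the median difference was 1.23 against 0.05 over all genes, of which 14.9% were called higher, 16.6% lower and 31.5% in either direction. The OFF6 arrays lay wholly above TUM in 9 and wholly below in 0, against 26.9% and 21.6% of all genes. Counts of genes below TUM were also 0 at an unadjusted p under 0.05. Control muscle exceeded TUM in 9 of the 10, all but Casq2, and fell below it in 0. The background there was wide, with 45.9% of all genes called higher, 30.3% lower and 76.2% in either direction, with arrays wholly above TUM in 50.4% and wholly below in 32.3%, and with a median over all genes of 0.15, a shift to keep in mind beside each comparison with control muscle. All 3 comparisons use the same TUM arrays, so they are not independent of one another.

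**Figure D1:**
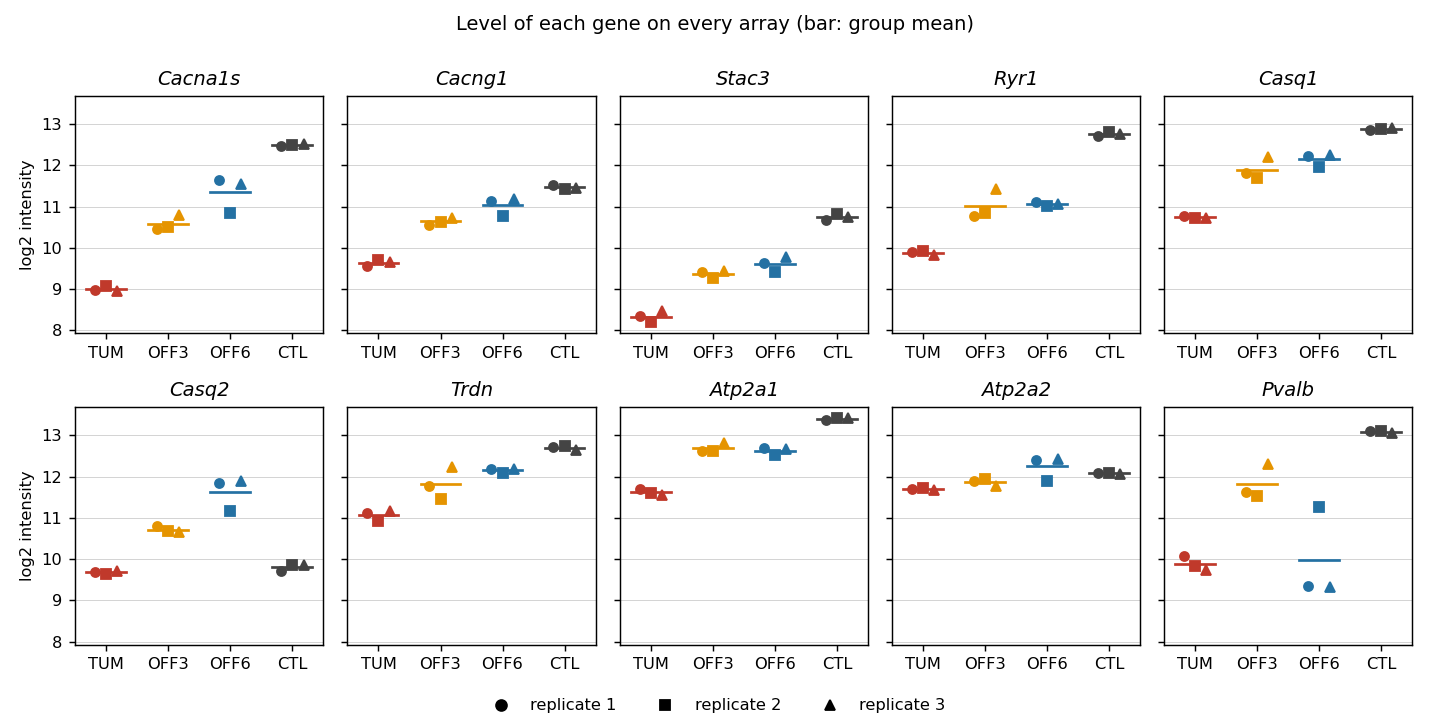
Log2 intensity (y axis) of the 10 genes on every array, by group (x axis: TUM, OFF3, OFF6 and CTL), each point 1 array and each bar a group mean. In 8 of the 10 panels the CTL points lie above all others. Casq2 has its highest points in OFF6, and 2 of the 3 OFF6 arrays of Pvalb lie below all TUM arrays.

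RefSeq promoter windows (GRCm38.p6, 250 bases before to 50 after the transcript start) matched 6 of the 10 genes. They were searched on both strands for the general E-box CANNTG, for its special case CAGCTG, the form that muscle regulatory factors of the MyoD family are known to bind, for GGAATG, the core bound by TEAD factors, through which YAP1 acts, and for the MEF2 motif. The general E-box occurred in 72.3% of 32851 windows, CAGCTG in 16.3%, GGAATG in 14.7% and the MEF2 motif in 3.19%. The 5 windows shown are those of Cacna1s (chr1:136052561-136052860, plus strand), Casq1 (chr1:172219846-172220145, minus strand), Atp2a1 (chr7:126463024-126463323, minus strand), Casq2 (chr3:102086165-102086464, plus strand) and Pvalb (chr15:78206351-78206650, minus strand, the first of its 2 entries), all 5′ to 3′ on the strand of the gene. They are the windows that hold CAGCTG or the MEF2 motif, so they were chosen by their letters and do not represent the 10 genes. Capitals mark CAGCTG in the first 3, together with GGAATG in that of Cacna1s, and the MEF2 motif in the last 2.
Cacna1s: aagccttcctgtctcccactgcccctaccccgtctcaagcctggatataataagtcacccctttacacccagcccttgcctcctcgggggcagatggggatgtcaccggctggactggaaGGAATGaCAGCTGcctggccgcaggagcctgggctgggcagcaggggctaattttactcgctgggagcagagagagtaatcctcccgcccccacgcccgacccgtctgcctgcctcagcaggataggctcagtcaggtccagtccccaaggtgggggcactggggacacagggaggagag
Casq1: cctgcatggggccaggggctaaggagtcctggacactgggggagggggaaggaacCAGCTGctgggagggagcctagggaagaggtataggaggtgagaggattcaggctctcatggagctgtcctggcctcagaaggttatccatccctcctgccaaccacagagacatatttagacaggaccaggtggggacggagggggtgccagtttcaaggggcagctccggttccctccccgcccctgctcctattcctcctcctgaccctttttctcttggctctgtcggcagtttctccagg
Atp2a1: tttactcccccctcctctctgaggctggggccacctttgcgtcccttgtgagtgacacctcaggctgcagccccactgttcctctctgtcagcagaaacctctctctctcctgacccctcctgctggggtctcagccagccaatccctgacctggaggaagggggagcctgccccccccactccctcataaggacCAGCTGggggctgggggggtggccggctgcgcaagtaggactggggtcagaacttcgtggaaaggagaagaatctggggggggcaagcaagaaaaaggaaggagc
Casq2: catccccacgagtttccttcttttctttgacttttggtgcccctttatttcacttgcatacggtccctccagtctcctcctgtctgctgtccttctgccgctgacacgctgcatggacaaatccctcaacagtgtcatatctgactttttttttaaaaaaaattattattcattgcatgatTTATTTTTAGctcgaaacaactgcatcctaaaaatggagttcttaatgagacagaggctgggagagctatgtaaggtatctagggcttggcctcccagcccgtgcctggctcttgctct
Pvalb: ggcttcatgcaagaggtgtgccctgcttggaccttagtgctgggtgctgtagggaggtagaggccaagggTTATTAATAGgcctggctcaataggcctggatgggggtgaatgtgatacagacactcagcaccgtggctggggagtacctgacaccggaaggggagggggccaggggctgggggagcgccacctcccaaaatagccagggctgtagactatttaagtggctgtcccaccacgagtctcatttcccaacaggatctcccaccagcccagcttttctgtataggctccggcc
In the Cacna1s window GGAATG began 130 bases before the start and CAGCTG 123 bases before it, with a single base between them. CAGCTG began 195 bases before the start of Casq1 and 55 before that of Atp2a1. The MEF2 motif began 69 bases before the start of Casq2 and 180 before that of Pvalb. In the Ryr1 window none of the motifs searched was found, and the second Pvalb entry held 2 general E-boxes and 0 MEF2 motifs. A match describes the letters in the window and does not show binding.

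The voltage sensor showed the largest rise of the group at day 6. Cacna1s, the pore-forming subunit of the skeletal L-type channel and the sensor itself, stood at log2 intensities of 8.99, 9.08 and 8.97 in TUM, 10.46, 10.50 and 10.80 in OFF3, 11.64, 10.86 and 11.55 in OFF6, and 12.46, 12.49 and 12.51 in CTL (replicates 1, 2 and 3). The 4 groups did not overlap, and the low array of OFF6 was replicate 2. The difference from TUM was 1.58 ± 0.16 (SE) in OFF3, a 2.98-fold rise (adjusted p = 1.37e-05), and 2.33 ± 0.16 in OFF6, a 5.04-fold rise (adjusted p = 4.47e-07). At day 6 this was the 30th largest rise of all 19937 genes. Control muscle lay 11.1-fold above TUM (3.47 ± 0.16, adjusted p = 7.70e-10).

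Cacng1, the gamma subunit of that channel, read 9.55, 9.72 and 9.65 in TUM, 10.56, 10.63 and 10.73 in OFF3, 11.13, 10.78 and 11.19 in OFF6, and 11.52, 11.42 and 11.45 in CTL. Its groups did not overlap either, and OFF6 replicate 2 was again the lowest of its group. Cacng1 rose by 1.00 ± 0.10 at day 3 (adjusted p = 9.07e-06) and by 1.39 ± 0.10 at day 6 (2.63-fold, adjusted p = 4.85e-07). Stac3, the adaptor that holds the sensor in contact with the release channel, read 8.34, 8.19 and 8.47 in TUM, 9.42, 9.27 and 9.44 in OFF3, 9.64, 9.41 and 9.78 in OFF6, and 10.68, 10.82 and 10.75 in CTL. Both withdrawal groups lay above TUM and below CTL but overlapped each other. Stac3 rose by 1.04 ± 0.10 at day 3 (adjusted p = 6.37e-06) and by 1.28 ± 0.10 at day 6 (2.42-fold, adjusted p = 9.24e-07).

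The release channel rose by day 3, and no further change was called at day 6. Ryr1, the skeletal ryanodine receptor that lets calcium out of the store, read 9.89, 9.92 and 9.84 in TUM, 10.76, 10.84 and 11.42 in OFF3, 11.12, 11.02 and 11.07 in OFF6, and 12.72, 12.81 and 12.77 in CTL. All OFF6 arrays lay inside the OFF3 range, whose top was set by OFF3 replicate 3. The rise over TUM was 1.13 ± 0.13 at day 3 (adjusted p = 3.55e-05) and 1.19 ± 0.13 at day 6 (2.28-fold, adjusted p = 1.88e-05). The difference between the 2 days was 0.06, with a 95% interval from -0.22 to 0.35 (adjusted p = 0.855). Without OFF3 replicate 3 it was 0.27 (adjusted p = 0.0255) by the same test. Ryr1 in CTL was 7.38-fold above TUM (2.88 ± 0.13, adjusted p = 5.61e-10).

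The calcium-binding proteins of the store followed separate courses. Casq1, the calsequestrin of fast fibres, read 10.77, 10.73 and 10.72 in TUM, 11.81, 11.69 and 12.20 in OFF3, 12.22, 11.96 and 12.26 in OFF6, and 12.85, 12.87 and 12.91 in CTL. Its OFF3 and OFF6 arrays overlapped, below all CTL arrays. Casq1 rose by 1.16 ± 0.11 at day 3 (adjusted p = 9.45e-06) and by 1.41 ± 0.11 at day 6 (2.65-fold, adjusted p = 1.40e-06).

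Casq2, the calsequestrin of heart and slow fibres, read 9.68, 9.65 and 9.71 in TUM, 10.81, 10.67 and 10.65 in OFF3, 11.84, 11.15 and 11.88 in OFF6, and 9.71, 9.87 and 9.86 in CTL. Every withdrawal array exceeded every control array, whereas the TUM and CTL arrays overlapped. Casq2 rose by 1.03 ± 0.15 at day 3 (adjusted p = 0.000214) and by 1.95 ± 0.15 at day 6 (3.86-fold, adjusted p = 9.10e-07). Control muscle differed from TUM by 0.13, with a 95% interval from -0.19 to 0.46 (adjusted p = 0.421), so that OFF6 lay 3.51-fold above control muscle (1.81 ± 0.15, adjusted p = 2.70e-07). It was the only one of the 10 called above control muscle, at either day. The summed intensity of 4 cardiac markers (Myh6, Nppa, Tnni3 and Myl7) lay between 217.1 and 234.1 in TUM, 242.6 and 255.7 in OFF3, 262.5 and 283.1 in OFF6 and 387.7 and 421.4 in CTL, without overlap. Of these 4, 1 was called higher in OFF3 and 3 in OFF6 than in TUM. All 4 were dim in the tumours, with group means from 5.16 (Myl7 in TUM) to 6.54 (Tnni3 in OFF6). The immature fibre sums given above were highest in OFF6, with replicate 2 the lowest of that group, and lowest in CTL. The part of either marker list in the Casq2 values was not tested.

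Trdn encodes triadin, which ties calsequestrin to the release channel. Its brightest probe set read 11.13, 10.92 and 11.17 in TUM, 11.77, 11.46 and 12.24 in OFF3, 12.18, 12.08 and 12.20 in OFF6, and 12.71, 12.74 and 12.65 in CTL. OFF3 spread widely, with replicate 3 above all OFF6 arrays. Trdn rose by 0.75 ± 0.15 at day 3 (adjusted p = 0.00196) and by 1.08 ± 0.15 at day 6 (2.11-fold, adjusted p = 0.000114). The gene had 19 probe sets of a single symbol, and they differed in size. Over TUM, 11 of the 19 were called higher at day 3 (range 0.03 to 1.37), 14 at day 6 (range -0.06 to 1.88) and 19 in CTL (range 1.38 to 4.35), with 0 called lower in each. With the probe set of largest variance, Trdn differed by 0.91 at day 3 (adjusted p = 0.138) and by 1.09 at day 6 (adjusted p = 0.0726), neither called.

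The 2 calcium pumps moved unequally. Atp2a1 encodes SERCA1, which refills the store in fast fibres, and read 11.70, 11.61 and 11.54 in TUM, 12.62, 12.63 and 12.81 in OFF3, 12.69, 12.52 and 12.68 in OFF6, and 13.37, 13.43 and 13.43 in CTL. OFF3 and OFF6 overlapped, between TUM and CTL. Atp2a1 rose by 1.07 ± 0.07 at day 3 (adjusted p = 5.50e-07) and by 1.01 ± 0.07 at day 6 (2.01-fold, adjusted p = 6.13e-07). From day 3 to day 6 the difference was -0.06, with a 95% interval from -0.22 to 0.10 (adjusted p = 0.73).

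Atp2a2 encodes SERCA2, the pump of slow fibres, heart and, in another splice form, most cells. It read 11.71, 11.74 and 11.68 in TUM, 11.88, 11.94 and 11.78 in OFF3, 12.41, 11.90 and 12.43 in OFF6, and 12.09, 12.08 and 12.07 in CTL. The OFF3 arrays were above TUM by little, and OFF6 replicates 1 and 3 were above control muscle while replicate 2 was below it. The day 3 difference was 0.16, with a 95% interval from -0.09 to 0.41 (adjusted p = 0.374). At day 6 Atp2a2 rose by 0.54 ± 0.11 (1.45-fold, adjusted p = 0.00301). Its OFF6 difference from control muscle was 0.17 (adjusted p = 0.21), and 0.34 without OFF6 replicate 2 (adjusted p = 0.000372).

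The log2 ratio of 2 genes within an array shows whether they changed unequally, and its zero has no meaning across probe sets. Relative to TUM, the ratio of Atp2a1 to Atp2a2 was 0.91 higher in OFF3, 0.47 higher in OFF6 and 1.42 higher in CTL. The 6 withdrawal arrays together exceeded the 3 TUM arrays by 0.69 (two-sided exact permutation test, p = 0.0238, the smallest this design allows). With 1 TUM array left out the smallest p allowed is 0.0714. With OFF3 replicate 3 and OFF6 replicate 2 left out the difference was 0.58 (exact p = 0.0571, again the smallest allowed). The ratio of Casq1 to Casq2 minus its TUM mean was 0.13 in OFF3, -0.54 in OFF6 and 2.01 in CTL. Its 6 withdrawal arrays together differed from TUM by -0.20 (two-sided exact permutation test, p = 0.405). That test joins 2 days whose means lay on opposite sides of TUM, so it cannot show a change at 1 day alone. The OFF6 arrays (0.38 to 0.80) lay wholly below the TUM arrays (1.00 to 1.09), and the OFF3 arrays (1.00 to 1.55) overlapped TUM. For both pairs every control array had a higher ratio of the first gene to the second than every tumour array.

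**Figure D2:**
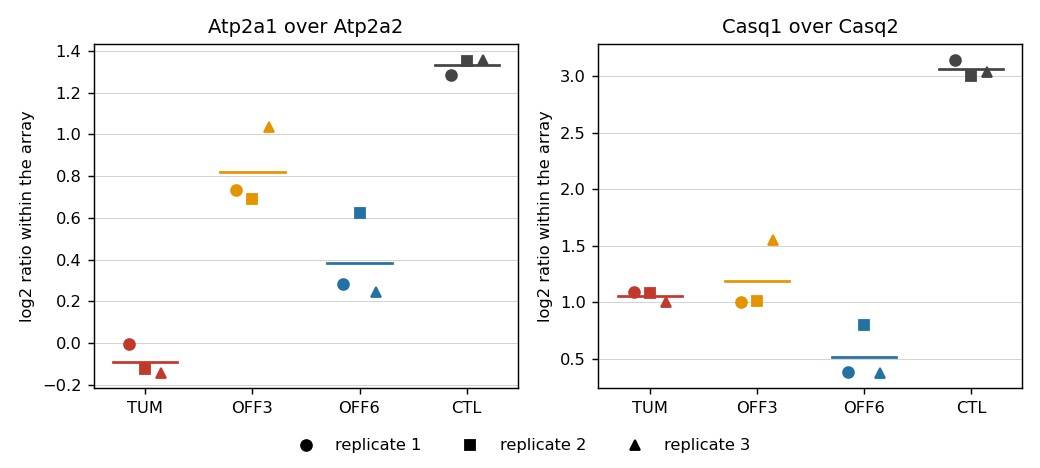
Log2 ratio within each array (y axis) of Atp2a1 over Atp2a2 and of Casq1 over Casq2, by group (x axis), each point 1 array and each bar a group mean. Only differences between groups can be read: CTL lies 1.42 and 2.01 above TUM, and for Casq1 over Casq2 the OFF6 mean minus the TUM mean is -0.54.

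Pvalb, the cytoplasmic calcium buffer of fast fibres, rose at day 3, and at day 6 read below its starting level in 2 of 3 arrays. It read 10.07, 9.82 and 9.73 in TUM, 11.63, 11.53 and 12.30 in OFF3, 9.35, 11.25 and 9.34 in OFF6, and 13.10, 13.11 and 13.06 in CTL. OFF6 replicates 1 and 3 were below every TUM array, and OFF6 replicate 2 was near the OFF3 arrays. The rise at day 3 was 1.95 ± 0.40, or 3.86-fold (adjusted p = 0.00249), the 29th largest of all genes. At day 6 the difference from TUM was 0.10, with a 95% interval from -0.76 to 0.97 (adjusted p = 0.869). Without OFF6 replicate 2 it was -0.53 (adjusted p = 0.0365). From day 3 to day 6 Pvalb fell by 1.84 on the log2 scale (SE 0.40, adjusted p = 0.0147), the 5th largest fall of all genes, and by 2.48 without OFF6 replicate 2 (adjusted p = 1.72e-06). The call was lost without OFF6 replicate 1 (-1.53, adjusted p = 0.0733), without OFF6 replicate 3 (-1.52, adjusted p = 0.0792) and in a fit of only the 6 arrays (adjusted p = 0.129).

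Of the 12 adult fibre markers, a list that holds fast and slow fibre genes, 3 were called higher, 1 lower and 8 neither at day 6 than at day 3. The median difference of the 12 was 0.03. The mean of Ampd1 was 10.25 in OFF3 (arrays from 9.94 to 10.77) and 9.81 in OFF6, a fall that was not called. Means were higher in OFF6 than in OFF3 for the slow myosin Myh7 (10.21 against 9.24) and for Myh2 (11.46 against 10.88). The same held for Actn3 (12.38 against 12.09) and Mylpf (11.83 against 11.55). The fast myosin Myh4 differed by -0.15 (adjusted p = 0.506) and Myh1, another fast myosin, rose by 0.32 (adjusted p = 0.0314), while the creatine kinase Ckm fell by 0.44 (log2, adjusted p = 0.016). Summed adult marker intensity in OFF6 was 40509, 38251 and 40004, with replicate 2, the array with the high Pvalb level, lowest. Summed intensity of 5 fibroblast markers was 12829, 17657 and 12279 in OFF6 and between 17229 and 18471 in OFF3, so there replicate 2 read like the OFF3 arrays. The part of fibre or fibroblast content in the Pvalb values was not tested.

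**Figure D3:**
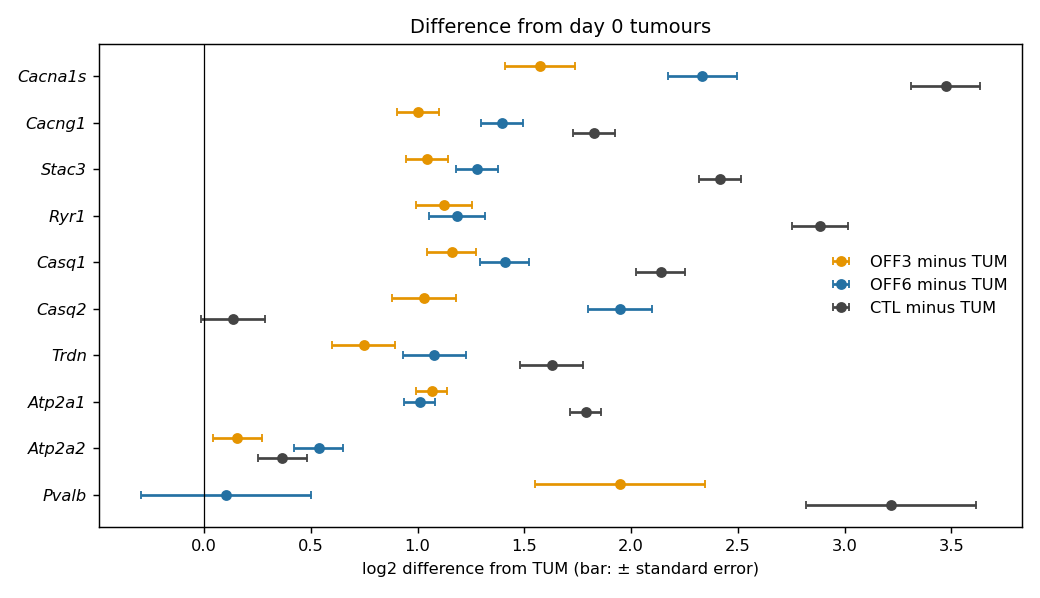
Log2 difference from TUM (x axis) of each of the 10 genes (y axis) in OFF3, OFF6 and CTL, with bars for ± the standard error, 3 arrays per group. Cacna1s reaches 2.33 and Casq2 1.95 in OFF6, Pvalb drops from 1.95 in OFF3 to 0.10 in OFF6, and Casq2 differs by 0.13 in CTL.

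For the 8 genes whose control level exceeded TUM by at least 1 log2 unit, each withdrawal array was placed between the TUM mean (0%) and the CTL mean (100%). This is a description with no test. At day 3 the group means lay between 39.1% ± 12.5 (SD, n = 3), for Ryr1, and 60.6% ± 13.1, for Pvalb. Trdn was the least even, at 42.9%, 23.6% and 71.4% in replicates 1, 2 and 3. At day 6 Cacng1 stood at 76.4% ± 12.3, Cacna1s at 67.2% ± 12.3, Trdn by its brightest probe set at 66.2% ± 3.8, Casq1 at 65.8% ± 7.7, Atp2a1 at 56.5% ± 5.3, Stac3 at 52.8% ± 7.7 and Ryr1 at 41.2% ± 1.8. For Trdn the value depended on the probe set, being 40.5% with the mean of its probe sets and 25.0% with the most variable one. The shares are therefore given gene by gene and are not ranked against each other. Pvalb arrays were at -16.4%, 42.9% and -16.7%. Casq2 and Atp2a2 had gaps of 0.13 and 0.37 and were left out.

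**Figure D4:**
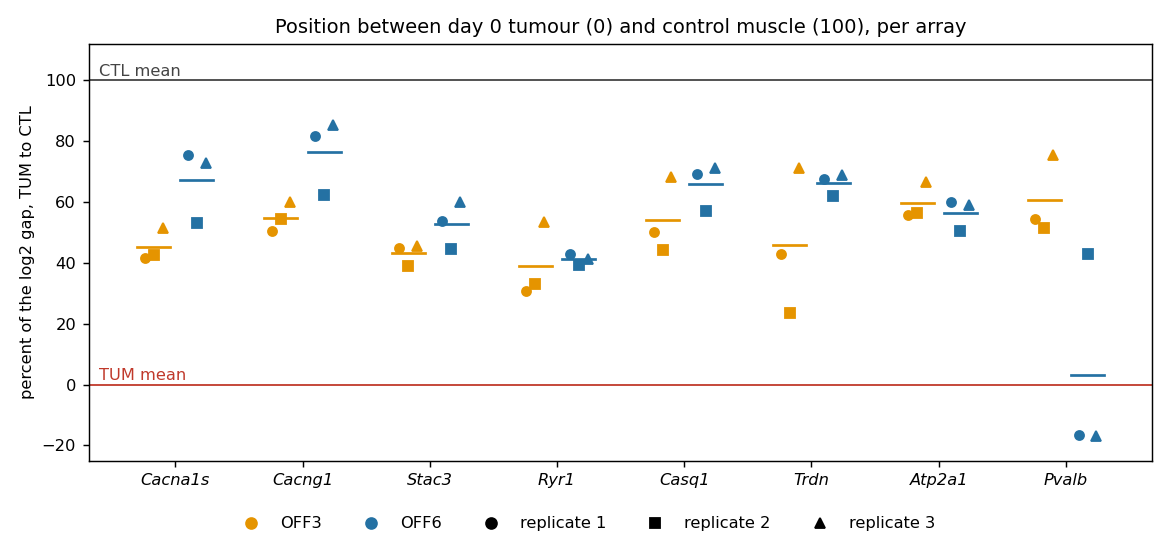
Position of each OFF3 and OFF6 array between the TUM mean (0) and the CTL mean (100), as a percent of the log2 gap (y axis), for the 8 genes with a gap of at least 1 (x axis). No array reaches 100, the Ryr1 arrays of OFF6 lie near 41.2 and 2 OFF6 arrays of Pvalb lie below 0.

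Between day 3 and day 6, 3 of the 10 genes rose further and 1 fell, where 6.05% of all genes were called higher, 4.38% lower and 10.4% in either direction. The rises were Casq2 (0.92 ± 0.15, adjusted p = 0.00436), Cacna1s (0.76 ± 0.16, adjusted p = 0.0146) and Cacng1 (0.39 ± 0.10, adjusted p = 0.0274), and the fall was Pvalb. The arrays of these 4 genes did not overlap between the days, as in 12.4% of all genes above and 8.73% below. Atp2a2 missed the threshold at 0.38 ± 0.11 (adjusted p = 0.0543). These counts depended on which arrays entered. Without OFF6 replicate 2, 6 genes were called higher, with Atp2a2, Stac3 and Casq1 added. Without OFF3 replicate 3, 6 were called higher, with Ryr1, Casq1 and Trdn added. With both arrays out, 8 were called higher, all but Atp2a1 and Pvalb. Leaving out any other OFF3 or OFF6 array left 1 gene called higher. With limma fitted to only the 6 arrays of these groups, 0 were called in either direction, and 4 were higher and 1 lower at an unadjusted p under 0.05.

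At day 6 the machinery was still below control muscle for most of its parts. Of the 10 genes 8 were called below CTL and 1, Casq2, above it at each day. Among all genes 41.4% were called lower and 28.4% higher at day 3 (69.8% in either direction), and 36.1% and 28.1% at day 6 (64.2%). Arrays lay wholly below CTL in 9 of the 10 at day 3 and 8 at day 6, against 43.1% and 39.6% of all genes, and wholly above it in 1 at each day, against 29.3% and 28.8%. At day 6 Pvalb differed from control muscle by -3.11 ± 0.40 (adjusted p = 1.75e-05) and Ryr1 by -1.70 ± 0.13 (adjusted p = 1.40e-07). The others called lower differed by -1.14 for both Stac3 and Cacna1s, -0.78 for Atp2a1, -0.73 for Casq1, -0.55 for Trdn and -0.43 for Cacng1. The Trdn value is close to the smallest of its 19 probe sets, all called lower, which ran from -3.27 to -0.52 with a median of -1.52. The uncalled gene was Atp2a2, at -0.21 at day 3 (adjusted p = 0.116) and 0.17 at day 6.

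The wider pathway was read from a list of 40 other genes, 34 of them measured, also chosen with earlier results of these data known. Of the 34, 21 rose and 1 fell from TUM to OFF3, and 26 rose and 1 fell to OFF6, with median differences of 0.47 and 0.58 against 0.02 and 0.05 over all genes. The shares of all genes called higher and lower were 13.4% and 16% at day 3 and 14.9% and 16.6% at day 6. Control muscle exceeded TUM in 27 and lay below it in 4, with a median of 1.31, where 45.9% of all genes were called higher and 30.3% lower with a median of 0.15. From day 3 to day 6, 11 were called higher and 2 lower, beside 6.05% and 4.38% of all genes, 20 and 3 without OFF6 replicate 2, and 3 and 0 without OFF6 replicate 3. All 9 measured triad structure genes were higher in OFF6 than in TUM, and 6 of the 9 in OFF3. Store and release genes were more mixed, with 3 of 7 higher at each day. All 3 genes of store-operated entry, the route that refills the store from outside, were higher at day 6. The difference from TUM of Stim1, the calcium sensor of that route, was 0.56 at day 3 and 1.22 at day 6, and that of Jph1, a junctophilin that bridges store and surface membrane, was 0.96 and 1.45.

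At day 6 the largest rises were those of Cacnb1, Srl, Cav3 and Hrc. Cacnb1, the beta subunit that brings the voltage sensor to the membrane, read 8.24, 8.27 and 8.33 in TUM, 9.17, 9.13 and 9.30 in OFF3, 10.47, 9.63 and 10.53 in OFF6, and 10.56, 10.54 and 10.51 in CTL. Its rise was 0.92 ± 0.18 at day 3 (adjusted p = 0.00161) and 1.93 ± 0.18 at day 6 (adjusted p = 3.67e-06), with OFF6 replicates 1 and 3 close to the control level. Srl encodes sarcalumenin, a calcium-binding protein of the store, and rose by 1.37 ± 0.11 at day 3 (adjusted p = 1.78e-06) and 1.84 ± 0.11 at day 6 (adjusted p = 1.41e-07). Hrc, the histidine-rich store protein that binds calcium and triadin, rose by 1.36 ± 0.10 at day 3 (adjusted p = 7.65e-07) and 1.70 ± 0.10 at day 6 (adjusted p = 1.16e-07). Control muscle lay a further 2.00 above OFF6 for Hrc.

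Cav3, the muscle caveolin of developing surface folds, read 7.51, 7.56 and 7.62 in TUM, 8.18, 8.23 and 8.20 in OFF3, 9.61, 8.79 and 9.49 in OFF6, and 8.50, 8.80 and 8.55 in CTL. OFF6 replicates 1 and 3 exceeded every control array, and replicate 2 lay within the control range. Cav3 rose by 0.64 ± 0.17 at day 3 (adjusted p = 0.0105) and by 1.73 ± 0.17 at day 6 (adjusted p = 5.44e-06), and at day 6 was 0.68 above control muscle (adjusted p = 0.00318). Of the 34 genes of the list, 5 were called above control muscle at day 6 and 21 below it. Among all genes 28.1% were called above it and 36.1% below. Beside Cav3, those above were Sln, Slc8a1, Atp2b1 and Mcu.

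The 2 falls of the list were small. Fkbp1a, which encodes the immunophilin that steadies the release channel, fell by 0.42 at day 3 (log2, adjusted p = 0.00302). Atp2b1, a calcium pump of the surface membrane in many cell types, fell by 0.31 at day 6 (log2, adjusted p = 0.0021). Both were also lower in control muscle than in TUM, as were Slc8a1 and Sln, the latter encoding sarcolipin, a small inhibitor of the pumps. Slc8a1, a sodium-calcium exchanger of the surface membrane, read 8.76, 8.69 and 8.67 in TUM, 9.77, 9.56 and 9.61 in OFF3, 8.06, 9.47 and 7.93 in OFF6, and 7.27, 7.32 and 7.51 in CTL. It rose by 0.94 ± 0.29 at day 3 (adjusted p = 0.0282) and fell from day 3 to day 6 by 1.16 (log2, adjusted p = 0.0274). Both calls depended on the arrays fitted. Omitting a single array of either TUM or OFF3 ended the call of the rise (adjusted p between 0.0577 and 0.0784). In a limma fit of only the 6 arrays of TUM and OFF3 the rise was called (0.94, adjusted p = 2.68e-05). The call of the fall ended without any 1 OFF3 array and without OFF6 replicate 1 or 3 (adjusted p 0.0513 to 0.132). It also ended with only the 6 arrays of OFF3 and OFF6 (0.165). OFF6 replicates 1 and 3 of Slc8a1 were below TUM and replicate 2 was close to OFF3, as with Pvalb. The 2 genes lie on opposite sides of TUM in control muscle.

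**Figure D5:**
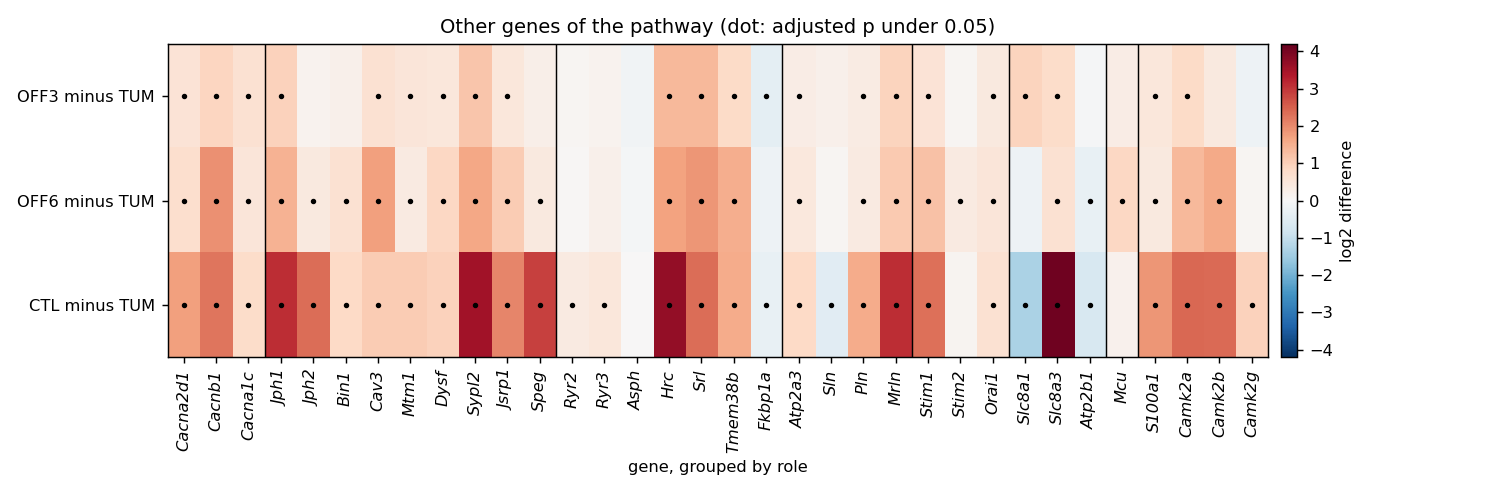
Log2 difference (colour) of the 34 measured other genes of the pathway (x axis, grouped by role) in OFF3, OFF6 and CTL, each minus TUM (y axis), with a dot where the adjusted p is under 0.05. The 9 triad structure genes are all called in OFF6 against TUM, and Slc8a1, Sln, Atp2b1 and Fkbp1a are called lower in CTL than in TUM.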

How the data were processed

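Total RNA of 12 mouse samples (4 groups of 3) was labelled and read on one-colour Affymetrix arrays. The authors deposited linear intensity values per probe set, made with RMA (background correction, normalisation between arrays and summary of probes), per the submitters' processing notes; the version is not given in the sources used here. Arrays hold no counts, and precision is limited by the number of arrays.

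Of 34760 probe sets, 21640 carried 1 gene symbol, 1321 several and 11799 none. Log2 was taken with no pseudocount and no filter on low values, and 1 probe set per gene was kept (highest mean over 12 arrays), giving 19937 genes. Using limma 3.58.1 in R 4.3.3, lmFit and eBayes estimated 4 group means from the 12 arrays together. The 6 comparisons were two-sided, adjusted by Benjamini and Hochberg over all genes within each, and called at an adjusted p under 0.05; an adjusted p in the text is from this test. The procedure was tested on simulated data. The data.table package (1.17.8) read the tables, and matplotlib 3.10.9 under Python 3.11.15 drew the plots.

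The members and gene lists were chosen with earlier results of these data known. All 10 members are named. Of the other pathway genes, those named are the 4 largest rises, the largest falls (2 existed), and those called opposite to Atp2a1 in control muscle. Jph1, Stim1, Mcu, Ckm, Ampd1, Actc1, Actn3, Mylpf, Myh1, Myh2, Myh4 and Myh7 were named after their values were seen. Of 54 cell type markers 51 were measured. Alternatives were other probe set choices, a pseudocount of 16, a low-value filter, other scalings, trended variance, array weights, a replicate block, fits of only the arrays compared, other thresholds and each array left out; leaving out both OFF3 replicate 3 and OFF6 replicate 2 was added after seeing the data. Matching replicate numbers were not taken to pair samples: over 18 pairs of arrays that share a number, deviations from the group means correlated between -0.39 and 0.25.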

Additional observations from a re-analysis of the deposited data

Results flagged for a closer look

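The change from TUM differed between day 6 and day 3 for 4 of the 10 genes, by the limma test of OFF6 minus OFF3. Among all genes 6.05% were called higher and 4.38% lower in that test, 10.4% in either direction. The day 6 change was larger by 0.76 for Cacna1s, 0.39 for Cacng1 and 0.92 for Casq2. For Pvalb the day 6 change minus the day 3 change was -1.84. All OFF6 arrays lay above all OFF3 arrays in the first 3 and below them in Pvalb, as in 12.4% and 8.73% of all genes. With limma fitted to only the 6 arrays of these groups, 0 of the 10 genes were called in either direction. Beside these 4 genes, 6 of 8 immature fibre markers were called higher and 2 of 5 fibroblast markers lower at day 6 than at day 3. The part of those markers in these values was not tested.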

How the results depend on the processing

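Over the 6 comparisons and their alternatives, 1018 of the members' values kept their side of the threshold. Another 21 lost the call, 28 gained it and 3 reversed with a call. The 1018 include uncalled differences whose sign changed, as for Atp2a1 in OFF6 minus OFF3 (-0.09 to 0.06 over the alternatives). The reversals were all Pvalb in OFF6 minus TUM: -0.53 without OFF6 replicate 2, also -0.53 without OFF3 replicate 3 as well, and -0.54 with array weights. With each array left out in turn it ran from -0.53 to 0.43 (without OFF6 replicate 3). The cause was not tested.

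Day 6 against day 3 was the comparison that moved most. With each array left out in turn, members called higher ranged from 1 to 6 and lower from 0 to 1, pathway genes higher from 3 to 20 and lower from 0 to 3, and all genes from 452 to 4874. Single omissions of OFF6 replicate 2 also gave 1 member (Pvalb) and 2 pathway genes below TUM at day 6, and 2 members and 8 pathway genes above CTL; over all omissions these ranged from 0 to 1, 1 to 2, 1 to 2 and 5 to 8. The ratio of Atp2a1 to Atp2a2 ranged from 0.61 to 0.76. With both OFF3 replicate 3 and OFF6 replicate 2 out, OFF6 minus OFF3 called 8 members and 20 pathway genes higher and 5399 genes in all, OFF3 and OFF6 minus TUM each called 2 pathway genes lower, OFF6 minus TUM called 1 member lower, OFF6 minus CTL called 2 members and 8 pathway genes higher, and the ratio was 0.58.

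With array weights, OFF6 minus OFF3 called 8 members higher, 21 pathway genes higher and 4 lower, and 8424 genes in all. Array weights also called 11175 genes and 3 pathway falls in OFF3 minus TUM, 10545 genes, 1 member fall and 2 pathway falls in OFF6 minus TUM, and 2 members above CTL in OFF6. Fitted to only the 6 arrays, OFF6 minus OFF3 called 0 members and 0 pathway genes either way and 30 genes in all (unadjusted p under 0.05: 13 pathway genes higher and 2 lower), and OFF3 minus TUM called 2 pathway falls. At an adjusted p under 0.01, OFF6 minus OFF3 called 1 member higher and 0 lower, 4 pathway genes higher and 0 lower, and 467 genes.

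With a minimum fold of 2, pathway genes called higher numbered 3 in OFF3 and 12 in OFF6 against TUM with 0 lower, among 760 and 892 genes. CTL minus TUM then had 1 pathway fall among 4451 genes. OFF6 minus OFF3 had 0 members higher, 3 pathway rises and 1 fall among 108 genes. OFF3 minus CTL had 0 members higher, 4 lower, 1 pathway gene higher and 16 lower among 3766 genes. OFF6 minus CTL had 4 members lower, 1 pathway gene higher and 12 lower among 3420 genes. Genes above the median level, fewer by construction, gave 8401 calls in CTL minus TUM, 8165 in OFF3 minus CTL and 7923 in OFF6 minus CTL.

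The position of Trdn between TUM and CTL was 40.5% at day 6 with the mean of its probe sets, and 21.0% at day 3 and 25.0% at day 6 with the most variable one. Centring arrays on their median moved the share of called genes that were higher from 58.0% to 71.6% in OFF6 minus OFF3. With the replicate block, OFF6 minus OFF3 called 3 members higher and 1 lower, 9 pathway genes higher and 2 lower, and 1654 genes. No count of calls moved over 1.5 times with the block.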
